A study of Mus musculus with 69 samples.

Results

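The cell proliferation genes described here are 40 genes whose transcripts serve DNA replication and mitosis. They were taken as a list of symbols and kept where the symbol was present in the count files with a total of at least 100 over the original libraries. All 40 of 40 listed symbols met this, among 17587 symbols of the series that did so and 24523 with a count. Whole kidneys of NZB/W F1 mice, a hybrid strain that develops lupus nephritis, were sequenced in 65 mice, and 4 of these mice were sequenced a second time. All mice were of this strain, and no genetic manipulation was involved. Young mice were 12 weeks old and untreated, with 7, 4, 4, 7, 4 and 4 mice at ZT0, 4, 8, 12, 16 and 20 (30 in all). Zeitgeber time (ZT) is counted in hours, with lights on at ZT0 and lights off at ZT12. Nephritic mice were 30 to 45 weeks old and were collected 2 to 3 weeks after the onset of proteinuria of 300 mg/dl, with 7, 4, 4, 6, 3 and 3 mice at the same time points (27 in all), so that age and disease differ together between them and young mice. Remission mice came from nephritic mice given as 36 to 50 weeks old. They received 1 dose of cyclophosphamide at 50 mg/kg with 6 doses each of CTLA4Ig (200 ug) and anti-CD40L (250 ug) over 2 weeks. They were collected 8 weeks later with proteinuria of at most 30 mg/dl, 4 at ZT0 and 4 at ZT12, and no untreated mice of that age without nephritis were analysed here. Cyclophosphamide itself acts on dividing cells, so remission and treatment cannot be told apart.

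Dividing cells switch these genes on in a fixed order. In late G1 the E2F factors, together with cyclin E, open S phase, in which the Mcm2 to Mcm7 helicase unwinds DNA, Pcna holds the polymerase on its template, and ribonucleotide reductase and thymidylate synthase supply nucleotides. Later, Foxm1 with its partners switches on the cyclin A and B, Cdk1 and polo kinase genes that carry the cell into mitosis, and the spindle checkpoint, the chromosomal passenger complex and the kinesins then part the chromosomes. In healthy adult kidney few cells divide, whereas in lupus nephritis glomerular cells, repairing tubule cells and infiltrating leukocytes may do so, and in several tissues the circadian clock is known to set the hour of division through genes such as Wee1 and Cdkn1a.

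The promoters of members at both ends of the range of change are shown for the short motifs that cell cycle factors are known to bind. RefSeq promoter windows (build GRCm38.p6) were matched by symbol for 33 of 40 members, and the 250 bases before the start site were searched on both strands. Capitals mark CCAAT (bound by NF-Y), TTTGAA (the cell cycle genes homology region, bound by the MuvB core with Foxm1 or B-Myb), TTCCCGC and TTGGCGC (E2F) and CACGTG (the E-box read by clock factors), in either orientation. The first pair belongs to the role whose transcripts differed most between nephritic and young kidney (chromosome structure) and the second pair to the role that differed least (nucleotide supply). The windows lie at chr7:135716380-135716629 on the minus strand for Mki67, chr11:99024190-99024439 on the minus strand for Top2a, chr7:102441445-102441694 on the plus strand for Rrm1 and chr5:30073626-30073875 on the minus strand for Tyms.
Mki67: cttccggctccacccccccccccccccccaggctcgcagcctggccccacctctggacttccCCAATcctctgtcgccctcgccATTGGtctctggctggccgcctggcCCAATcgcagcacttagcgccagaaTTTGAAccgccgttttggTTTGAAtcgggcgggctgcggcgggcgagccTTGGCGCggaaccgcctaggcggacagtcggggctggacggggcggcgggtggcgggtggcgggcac
Top2a: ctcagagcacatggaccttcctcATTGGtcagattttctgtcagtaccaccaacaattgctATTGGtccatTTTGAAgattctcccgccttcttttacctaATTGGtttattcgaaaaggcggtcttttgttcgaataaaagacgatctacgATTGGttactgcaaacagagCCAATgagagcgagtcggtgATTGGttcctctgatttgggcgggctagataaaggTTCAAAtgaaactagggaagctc
Rrm1: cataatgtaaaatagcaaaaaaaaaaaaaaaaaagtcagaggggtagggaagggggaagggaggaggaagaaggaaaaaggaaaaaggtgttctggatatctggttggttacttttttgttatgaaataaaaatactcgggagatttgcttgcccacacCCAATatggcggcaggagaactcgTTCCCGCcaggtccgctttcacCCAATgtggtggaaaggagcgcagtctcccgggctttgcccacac
Tyms: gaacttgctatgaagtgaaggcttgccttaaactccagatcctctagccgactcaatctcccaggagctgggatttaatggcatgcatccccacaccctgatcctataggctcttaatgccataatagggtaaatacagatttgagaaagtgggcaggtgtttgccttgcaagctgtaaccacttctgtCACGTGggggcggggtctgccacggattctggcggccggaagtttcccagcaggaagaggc

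The Mki67 window held CCAAT 3 times, TTTGAA 2 times and TTGGCGC 1 time, and that of Top2a held CCAAT 6 times and TTTGAA 2 times. Rrm1 had CCAAT 2 times and TTCCCGC 1 time, whereas Tyms had only an E-box, with its first base 61 bases before the start. Over the matched members, CCAAT was present in 27 of 33 (81.8%), against 37.5% of 27025 symbols with such a window. TTTGAA was present in 30.3% of members and 18.3% of symbols, either E2F motif in 24.2% and 6.45%, and the E-box in 6.06% and 6.86%. By role, TTTGAA was found in 9 of the 22 matched G2 to M and mitosis genes and in 1 of the 11 of replication, nucleotide supply and G1 to S, while an E2F motif was found in 4 of 22 and 4 of 11. These are matches of letters in a window and not binding sites. Windows of Aurkb, Ccna2, Ccne2, Foxm1, Kif20a, Mcm4 and Tpx2 were not analysed here.

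Total counts per library ranged from 25257530 to 35744843 in young (median 30300721), from 26596500 to 48075977 in nephritic (median 33047149) and from 13311278 to 21849912 in remission mice, whose libraries were run separately from those of the other groups. Levels are given as CPM, edgeR's count relative to library size, after TMM scaling over the 69 libraries, and a difference between groups as a log2 change with its standard error (SE) and the adjusted p of edgeR's quasi-likelihood test over all genes tested. An adjusted p of at most 0.05 is called passing. Nothing in the labels says more of the replicates than that they are separate mice. Young and nephritic mice belonged to 2 sets, set 1 with 6 young and 5 nephritic mice, all at ZT0 or ZT12, and set 2 with 24 and 22, and set was a term of the fits. What the sets differ in is not given here. Some libraries stood apart from their labels. The second library of the nephritic mouse RX11RU (ZT12) was nearer to the first library of RX11LU (ZT4; SD of the log2 ratio 0.190 over genes) than to its own first library (0.434), while the other 3 second libraries were nearest to their own mouse (0.170 to 0.209). The remission libraries s8 (ZT0) and s9 (labelled ZT12) were the closest of 28 remission pairs (0.186), and s9 had 27.1 CPM of the clock gene Arntl, as in ZT0 remission mice (23.1 to 28.8) and unlike the other ZT12 remission mice (3.19 to 4.90). The nephritic libraries RX12LU and RX11RL (both ZT4) were the closest pair of the series (0.119), closer than any second library to the first of its own mouse. The closest pairs and second libraries of the same mouse alike differed by more than sampling noise, so that this measure does not tell whether 2 libraries come from separate mice, and mice were counted as labelled. Remission results are given with s9, and the calls lost without it are named or counted beside them. The tissue carried its defining transcripts: the summed level of 5 proximal tubule markers was 7147 to 13011 CPM in young, 1255 to 9686 in nephritic and 4837 to 7834 in remission mice.

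In nephritic kidney 38 of 40 proliferation genes were higher than in young kidney, against 28.1% of 17521 genes tested, and 0 were lower, against 33.9% of genes tested. The median log2 change of the members was 1.73, while that of all genes tested was -0.03. At an unadjusted p under 0.05 the count of lower members was also 0, as it was with DESeq2. The 2 members that did not pass were Tyms and Ect2. By role, the median log2 change was 0.28 for nucleotide supply, 0.63 for DNA replication and 0.92 for G1 to S, and it was 1.75 for kinetochore, spindle and cytokinesis genes, 2.29 for the G2 to M cyclins, kinases and their factor, 2.32 for the chromosomal passenger complex, 2.41 for the spindle checkpoint and APC/C and 2.77 for chromosome structure. The difference between roles was not tested, and single members crossed this order, such as Ccne1 (2.06) of G1 to S and Kif20a (0.70) of the spindle genes.

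The groups overlapped for every member. In 0 of 40 was the lowest nephritic mouse above the highest young mouse, a share near that of all genes tested (0.885%). Between 0 and 25 of the 27 nephritic mice exceeded the highest young mouse, with a median over members of 22. The summed level of the 40 genes was 211.7 to 297 CPM (median 228) in young mice, 262 to 981 (median 407) in nephritic mice and 238 to 509 (median 304) in remission mice. Kidney RNA of this kind is a mixture, and fewer cells of a type and less RNA per cell cannot be told apart in it.

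**Figure D1:**
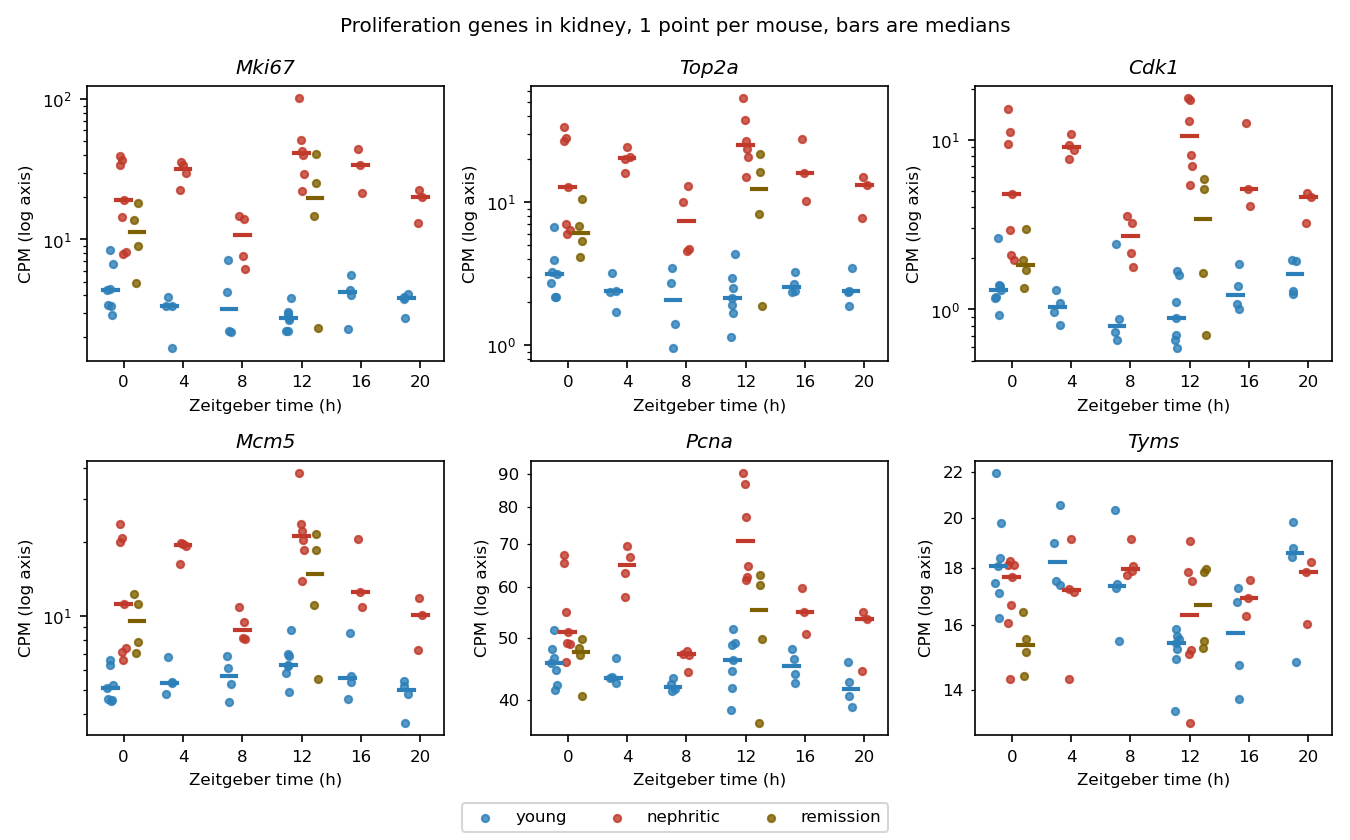
Level of Mki67, Top2a, Cdk1, Mcm5, Pcna and Tyms in CPM (log axis) against zeitgeber time in hours for young, nephritic and remission kidney, with 1 point a mouse and bars at the median of each group and time point. Mki67, Top2a and Cdk1 lie above the highest young mouse in 23 of 27 nephritic mice, whereas Tyms overlaps in all groups.

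Mki67 encodes the protein that coats mitotic chromosomes and is stained as Ki-67 to count cycling cells. Its level was 1.67 CPM in the lowest, 3.38 in the median and 8.34 in the highest young mouse, and 6.15, 22.7 and 101 CPM in nephritic mice. All but 4 nephritic mice (23 of 27) exceeded the highest young mouse, and the log2 change was 2.81 (SE 0.20, adjusted p = 2.3e-17). Top2a, the topoisomerase that untangles sister chromatids, went from 0.95, 2.39 and 6.68 CPM (lowest, median and highest) in young to 4.59, 16 and 53.1 CPM in nephritic mice. It too was above the highest young mouse in 23 of 27, with a log2 change of 2.73 (SE 0.19, adjusted p = 4.1e-18). The highest nephritic mouse was the same for both genes, HIL5RU of set 1 at ZT12.

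Among the G2 to M genes 8 of 8 rose. Cdk1, the kinase that drives entry into mitosis, measured 0.591 to 2.62 CPM (median 1.18) in young and 1.77 to 17.5 CPM (median 5.38) in nephritic mice. The overlap was small, with 23 of 27 nephritic mice above all young mice, and the log2 change was 2.42 (SE 0.21, adjusted p = 3.1e-14). Its partners moved alike: cyclin B1 (Ccnb1) had medians of 0.666 and 3.57 CPM and a log2 change of 2.60 (SE 0.22), cyclin A2 (Ccna2) medians of 1.24 and 5.74 CPM and a log2 change of 2.26 (SE 0.18). Plk1, the polo kinase that opens mitosis, was less changed, at 1.49 against 4.49 CPM in the median mouse and a log2 change of 1.62 (SE 0.16). Foxm1, the factor that switches on much of this group, had medians of 1.41 and 5.01 CPM and a log2 change of 1.83 (SE 0.17, adjusted p = 3.4e-13), with 21 of 27 nephritic mice above all young mice. Melk, a kinase of dividing and progenitor cells, had the second largest change of all members, with a log2 change of 2.78 (SE 0.23) from a young median of only 0.269 CPM.

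The spindle checkpoint holds anaphase until each chromosome is attached, and Cdc20 and Ube2c then turn on the anaphase-promoting complex (APC/C). All 5 members rose. Bub1, a checkpoint kinase, had 0.102 to 0.806 CPM (median 0.338) in young and 0.357 to 6.71 CPM (median 1.72) in nephritic mice, with a log2 change of 2.41 (SE 0.21, adjusted p = 1.8e-14). Cdc20 had a log2 change of 1.91 (SE 0.16) and Ube2c of 0.98 (SE 0.12, adjusted p = 1.4e-09), the smallest of this role. The passenger complex corrects wrong attachments, with Aurkb as its kinase and Birc5 (survivin) and Cdca8 (borealin) as its anchors, and its 3 members rose as well. Aurkb measured 0.254 to 1.32 CPM (median 0.661) in young and 0.723 to 13.1 CPM (median 4.03) in nephritic mice. The difference was above the young range in 24 of 27 mice, with a log2 change of 2.51 (SE 0.20, adjusted p = 6.4e-16). Birc5 was close, at 2.32 (SE 0.19).

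Of the 9 kinetochore, spindle and cytokinesis genes 8 rose. Prc1, which bundles the microtubules of the central spindle, led with medians of 0.990 and 5.86 CPM and a log2 change of 2.59 (SE 0.23, adjusted p = 2.6e-14). The kinetochore protein Cenpf (log2 change 2.33, SE 0.22) and Kif11, the motor that pushes the spindle poles apart (2.09, SE 0.18), followed. Ect2, the exchange factor that turns on RhoA for the contractile ring, was the exception. Its level was 6.12 to 27.8 CPM (median 11.2) in young and 5.24 to 27.9 CPM (median 13.3) in nephritic mice, almost the same range. The log2 change was 0.02 (SE 0.13, adjusted p = 0.91), but the sets differed: in set 1 alone, an alternative added after seeing the data, Ect2 was lower in nephritic mice (log2 change -1.05, SE 0.21, adjusted p = 0.0016), whereas in set 2 alone it was higher (0.30, SE 0.12, adjusted p = 0.034). Young mice of set 1 had 19.6 to 27.8 CPM of Ect2 and those of set 2 had 6.12 to 19.4 CPM, with no overlap.

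In the DNA replication group 7 of 7 genes rose. Mcm5 had the values 3.67, 5.40 and 8.78 CPM (lowest, median and highest) in young and 6.59, 13.9 and 38.1 CPM in nephritic mice. Of 27 nephritic mice 21 exceeded all young mice, and the log2 change was 1.37 (SE 0.11, adjusted p = 5e-15). Mcm3 was similar (1.42, SE 0.13), whereas Mcm2 (0.71, SE 0.08) and Mcm6 (0.53, SE 0.07), other subunits of the same helicase, changed less. Pcna, the sliding clamp, which also serves DNA repair, measured 38.5 to 51.5 CPM (median 43.7) in young and 44.3 to 90.2 CPM (median 54.9) in nephritic mice. The increase was small and the ranges overlapped, with 17 of 27 nephritic mice above all young mice and a log2 change of 0.38 (SE 0.05, adjusted p = 7.6e-10).

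The enzymes of nucleotide supply were divided. Rrm2, the cell cycle regulated subunit of ribonucleotide reductase, had medians of 6.21 CPM in young and 14.4 CPM in nephritic mice and a log2 change of 1.36 (SE 0.13, adjusted p = 7.7e-13). The large subunit Rrm1, which is more stable through the cycle, had 17.4 to 23.0 CPM (median 20.5) and 18.5 to 39.0 CPM (median 25.9), with a log2 change of only 0.28 (SE 0.05, adjusted p = 1.2e-06). Tyms, thymidylate synthase, had 13.4 to 21.9 CPM (median 17.3) in young and 13.1 to 19.1 CPM (median 17.6) in nephritic mice. No nephritic mouse exceeded the young range, and the log2 change was -0.02 (SE 0.04, adjusted p = 0.67). At the G1 to S step, cyclin E1 (Ccne1) rose from a median of 0.516 CPM to 2.00 CPM, a log2 change of 2.06 (SE 0.19, adjusted p = 1.6e-13). E2f1, the factor of this step, had a log2 change of 0.92 (SE 0.09) and cyclin E2 (Ccne2) of 0.38 (SE 0.09, adjusted p = 0.00015), with 22 and 5 of 27 nephritic mice above all young mice.

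**Figure D2:**
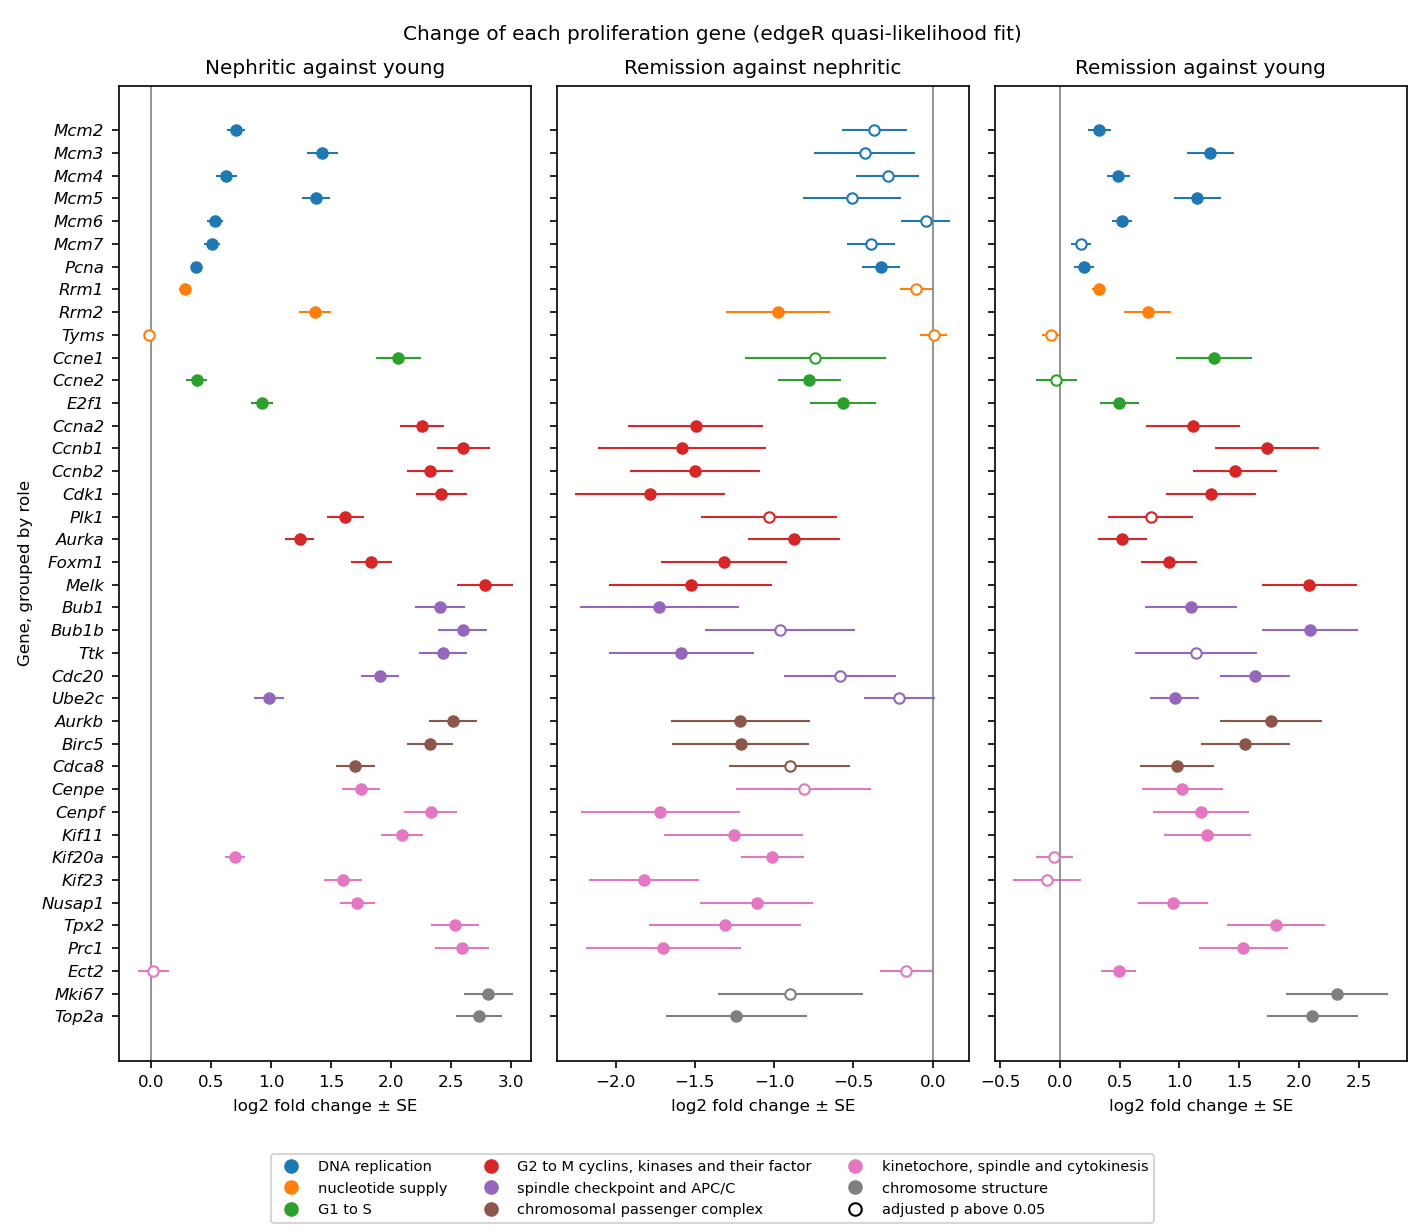
Log2 change of each of the 40 members with its SE, ordered by role, for nephritic against young, remission against nephritic and remission against young kidney (open points have an adjusted p above 0.05). In the first comparison the members lie between -0.02 (Tyms) and 2.81 (Mki67), with Ect2 (0.02) next to Tyms, and Tyms lies near 0 in each comparison.

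Levels per kilobase of exon show which members were already present in young kidney. On this scale Pcna had 18.2 CPM per kb in the median young mouse, Mcm7 5.51, Mcm6 5.26 and Tyms 2.84, whereas Ttk had 0.048, Cenpf 0.062, Bub1 0.078 and Melk 0.090. Over the 40 genes the young level per kb (log2) and the log2 change had r = -0.80 and rho = -0.81. Both measures use the same young values, and genes are not independent of each other, so this is a description. Tyms, which did not pass, was thus among the 4 members with the highest young level per kb.

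The genes moved together from mouse to mouse more closely in nephritic than in young kidney. Over the 780 pairs of members, the median Spearman correlation of CPM was 0.90 across the 27 nephritic mice, with 741 pairs above 0, and 0.20 across the 30 young mice, with 621 pairs above 0. Among the 8 remission mice the median was 0.83. In nephritic mice Tyms was the member least like the others, with a median correlation of -0.31, followed by Ccne2 (0.49) and Ect2 (0.63). The pairs share libraries and depth, and no p is given. Most members had lower counts in young mice, and the part of counting error in the lower correlation there was not tested.

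**Figure D3:**
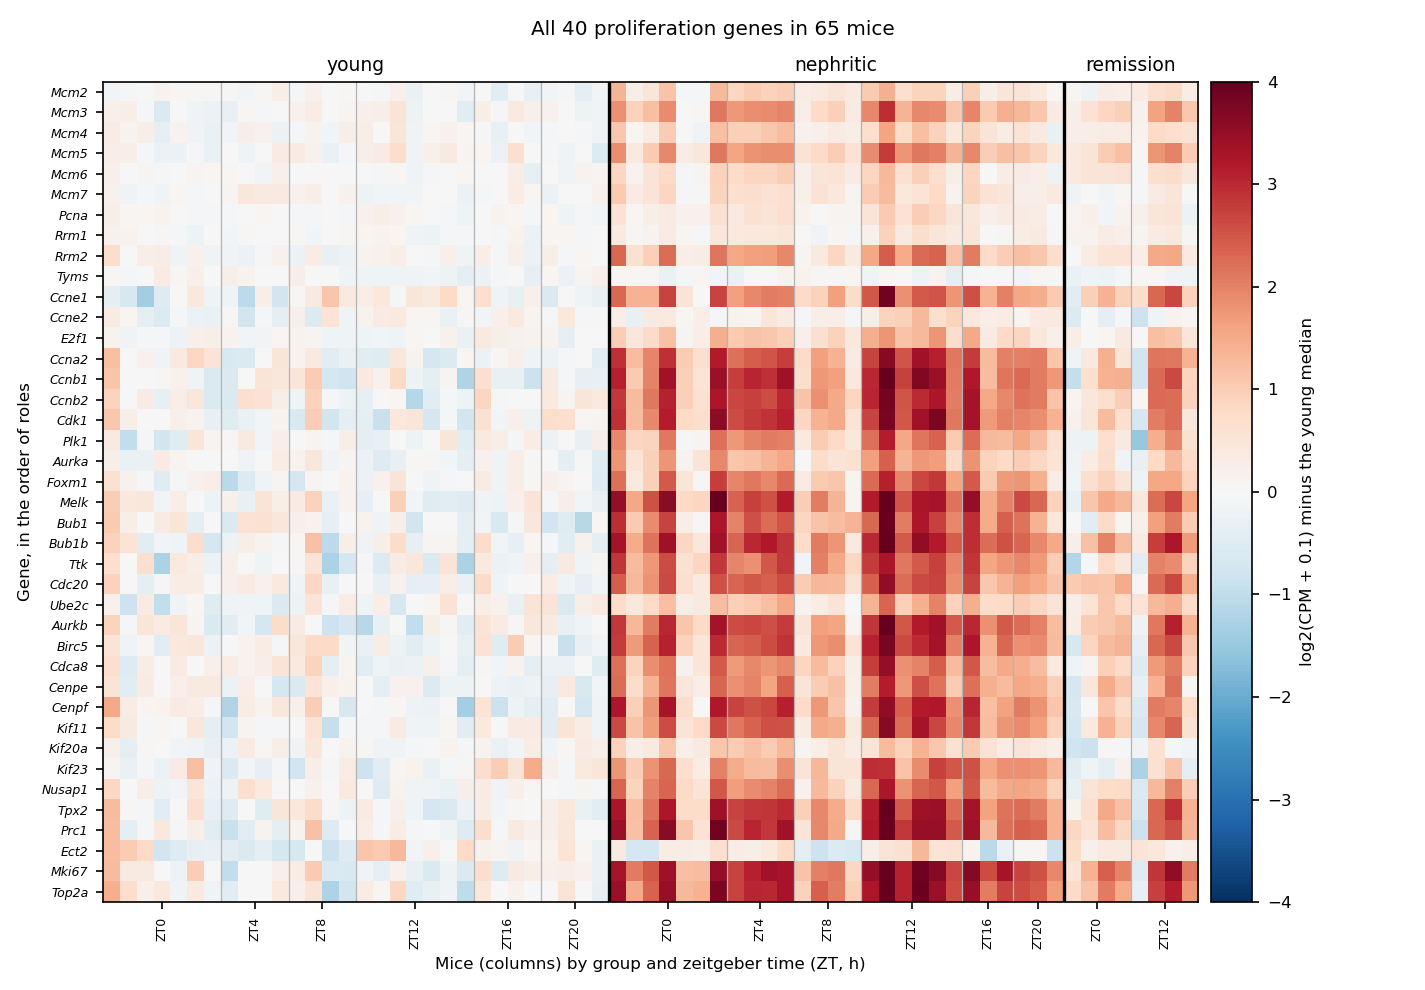
Level of the 40 members (rows, by role) in the 65 mice (columns, by group and time point), as log2 of CPM plus 0.1 minus the young median of each gene (red above it, blue below). Within a nephritic column most rows share a colour, from near the young median to well above it, and the rows of Tyms and Ect2 do not follow the others.

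Genes of the cell cycle that are not members were counted on lists of their own. Of all 17521 genes tested 28.1% were higher and 33.9% lower in nephritic than young kidney. Of 18 further replication genes 16 rose. Uhrf1, which keeps DNA methylation through replication, led (log2 change 2.12, SE 0.17, adjusted p = 1.2e-15), followed by the origin factor Cdc6 (1.76, SE 0.17) and Gins2 of the replicative helicase (1.25, SE 0.13). In mitosis 26 of 28 further genes rose and 1 fell, the largest being Cdc25c, the phosphatase that frees Cdk1 (2.86, SE 0.27), Ndc80 of the outer kinetochore (2.76, SE 0.21) and the spindle protein Dlgap5 (2.63, SE 0.20). Among 14 brakes of the cycle 7 rose and 3 fell. Cdkn1a, the p21 inhibitor of cyclin kinases, measured 5.58 to 24.3 CPM (median 13.6) in young and 11.2 to 86.8 CPM (median 36.2) in nephritic mice, with a log2 change of 1.55 (SE 0.12, adjusted p = 1.8e-16). Cdkn2a had the largest change of the brakes (3.32, SE 0.34, adjusted p = 4e-12) from a young median of 0.0333 CPM, and Gadd45a, induced by stress, changed by 0.51 (SE 0.08). The brakes that fell were Rbl2, Ccng1 and Rb1, by 0.12 to 0.44. Of 14 genes of G1 entry 10 rose and 1 fell, with E2f8 (2.32, SE 0.25), E2f7 (1.80, SE 0.22) and Myc (1.44, SE 0.18, adjusted p = 1.2e-09) changed most, while cyclin D1 (Ccnd1) had a log2 change of 0.00 (SE 0.11, adjusted p = 1). Of 8 cell cycle genes with a known tie to the clock, which include Cdkn1a and Myc, 6 rose, the other 3 largest being Chek1 (1.21, SE 0.12), Timeless (0.79, SE 0.09) and Chek2 (0.54, SE 0.08), and Wee1, the kinase that restrains Cdk1, was slightly lower (-0.20, SE 0.09, adjusted p = 0.047).

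Markers of other cells rose with the proliferation genes. All 7 T cell, 6 B cell and 7 macrophage markers and 4 of 5 plasma cell markers were higher in nephritic than young mice. Their summed levels were 6.68 to 14.7 against 11.1 to 197 CPM for T cells, 1.79 to 25.0 against 8.25 to 349 CPM for B cells, 25.0 to 70.1 against 43.7 to 2510 CPM for plasma cells and 95.0 to 189 against 194 to 1301 CPM for macrophages. The 6 injured tubule markers rose too, from 175 to 278 CPM in young to 160 to 2500 CPM in nephritic mice, and the 5 proximal tubule markers fell, as did the endothelial markers Kdr, Emcn and Tek of 5. Of the erythroid markers Hba-a1 and Hbb-bt were listed at 0 in every mouse, and adrenal cortex markers reached 1763 CPM in the young mouse ZT120 and 1160 CPM in the nephritic mouse RX10LU. The part of these cells in the level of the members was not tested. The following correlations across nephritic mice set Mki67 beside single markers and do not measure that part.

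Within the 27 nephritic mice, Mki67 (log2 CPM) was compared with 6 marker genes, and p-values came from 100000 permutations, two-sided, with Benjamini-Hochberg adjustment over the 6. The permutations exchanged mice without regard to time point or set, and the part of time point in these correlations was not tested. Pearson's r on this scale was 0.82 with the macrophage gene Cd68 (adjusted p = 3e-05; rho = 0.68, adjusted p = 0.00038). It was 0.79 with Ptprc, the CD45 gene of all leukocytes (adjusted p = 3e-05; rho = 0.67), 0.73 with the tubular injury gene Lcn2 (adjusted p = 4e-05; rho = 0.72), 0.71 with Mzb1 of plasmablasts (adjusted p = 0.00014; rho = 0.60), 0.64 with Havcr1 (Kim-1) of injured proximal tubule (adjusted p = 0.00034; rho = 0.66) and 0.63 with the T cell gene Cd3e (adjusted p = 0.0005; rho = 0.51). All 6 were positive, and their order depended on the measure: r was largest for Cd68 on log2 CPM and for Ptprc on CPM (0.86), and rho was largest for Lcn2. Leaving out the 2 mice farthest from the median of the marker gave r = 0.72 for Cd68, 0.65 for Ptprc, 0.69 for Lcn2, 0.53 for Mzb1, 0.65 for Havcr1 and 0.40 for Cd3e, where the rank correlation no longer passed (rho = 0.39, adjusted p = 0.058). In the 22 mice of set 2 all 6 passed, with r from 0.59 to 0.77, and set 1 holds 5 nephritic mice, too few for a correlation. The smallest p that these permutations can give is 1e-05.

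**Figure D4:**
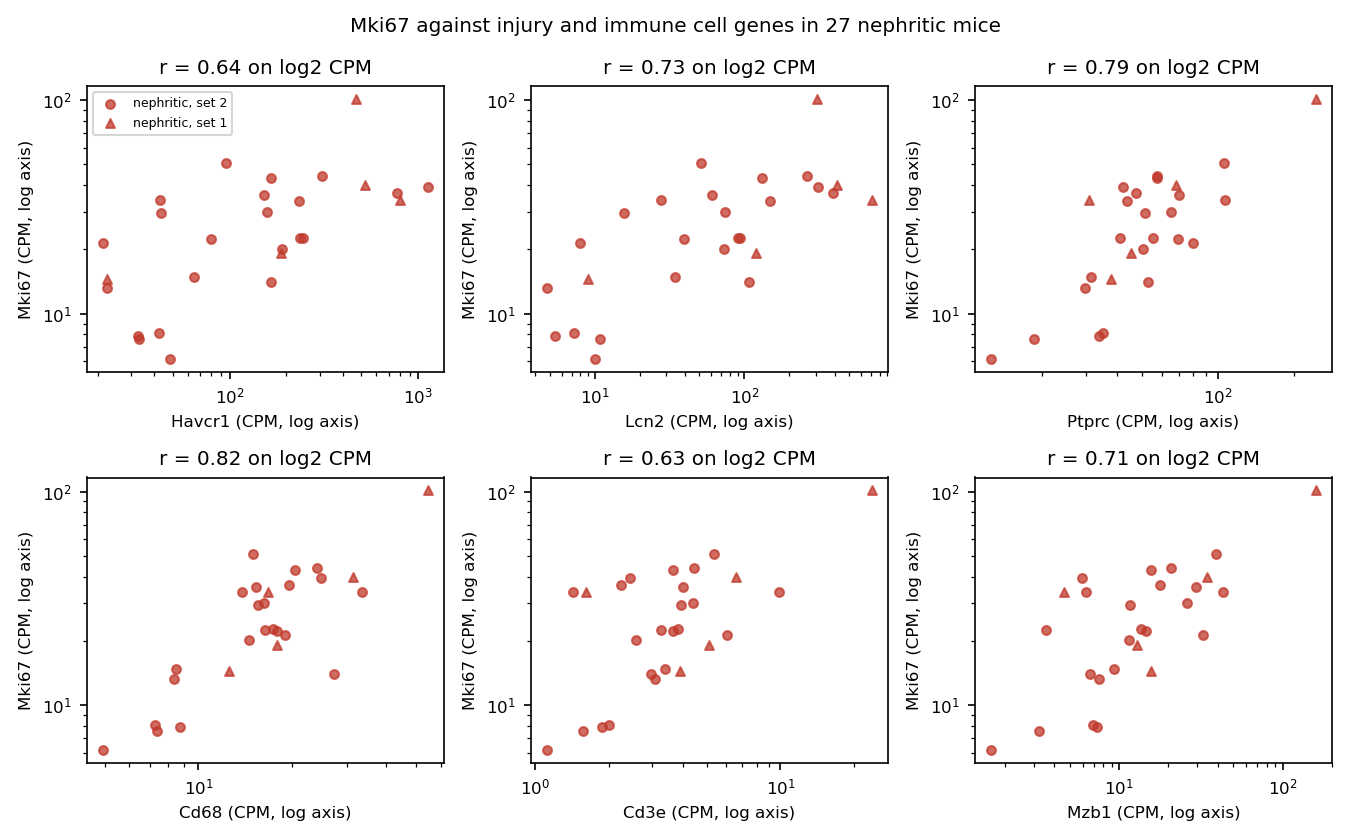
Mki67 against each of 6 marker genes in the 27 nephritic mice, both in CPM on log axes (1 point a mouse, circles for set 2 and triangles for set 1). Pearson's r on log2 CPM runs from 0.63 (Cd3e) to 0.82 (Cd68).

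In young kidney few of these genes were shown to vary with time of day. Over 6 time points 6 of 40 members passed the test in young mice, whereas 39.8% of 16521 genes tested did. In nephritic mice 9 of 40 passed, a share close to the 21.6% of 16872 genes tested. The 6 genes in young mice were Kif23, Ect2, Mcm7, Ccne1, Tyms and Mcm3, none of them from the G2 to M, checkpoint, passenger or chromosome structure roles. Those roles hold members of low young level, such as Ttk (0.048 CPM per kb in the median mouse) and Bub1 (0.078). Low counts make variation harder to detect, and their part in these counts of members was not tested. Their highest points were not shared. The highest set-adjusted mean was at ZT16 for 13 members, at ZT4 for 8, at ZT8 and at ZT20 for 6 each, at ZT0 for 5 and at ZT12 for 2, and the range between the highest and the lowest time point had a median of 0.47 on the log2 scale.

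Kif23 encodes a kinesin of the central spindle needed for cytokinesis. In young mice its level was 3.87 ± 1.8 CPM at ZT0 (SD, n = 7), 2.74 ± 0.47 at ZT4, 3.27 ± 0.98 at ZT8, 2.94 ± 0.64 at ZT12, 6.55 ± 2.0 at ZT16 and 4.01 ± 0.63 at ZT20 (n = 7 at ZT12, otherwise 4). The ZT16 mice, with 4.75 to 9.37 CPM, were above all other young mice except 1 at ZT0 with 7.66 CPM (adjusted p = 0.0042). Mcm7, a subunit of the replicative helicase, was highest at ZT4 (30.4 ± 3.0 CPM, n = 4) and lowest at ZT12 (22.6 ± 1.4 CPM, n = 7), and these time points did not overlap (26.1 to 33.2 against 20.6 to 24.5 CPM; adjusted p = 0.0059). Tyms had the same order at these time points, with 18.6 ± 1.5 CPM at ZT4 and 15.1 ± 0.83 CPM at ZT12 (adjusted p = 0.022), and its range at ZT12 (13.4 to 15.9 CPM) was below the range at ZT4 (17.4 to 20.5 CPM).

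Ect2 also passed in young mice (adjusted p = 0.0046), with 18.4 ± 7.0 CPM at ZT12 and 7.76 ± 0.79 CPM at ZT4. All ZT4 mice (6.83 to 8.62 CPM) were below all ZT12 mice (10.4 to 27.8 CPM), and since set 1 with its high Ect2 was collected at ZT0 and ZT12 only, the value in set 2 alone is given: the adjusted p was 0.0041. Ccne1, at 0.787 ± 0.31 CPM at ZT8 and 0.387 ± 0.19 CPM at ZT4 (adjusted p = 0.019), and Mcm3, at 5.39 ± 0.71 CPM at ZT16 and 4.43 ± 0.46 CPM at ZT4 (adjusted p = 0.039), did not pass in set 2 alone, which left 4 members. Over all genes 5733 of 16267 tested passed in set 2 alone. For Mki67 the young means lay between 2.81 ± 0.55 CPM at ZT12 and 4.78 ± 2.0 CPM at ZT0, with overlapping mice at each time point (adjusted p = 0.14).

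In nephritic mice most members had their highest and lowest means at the same time points. The highest set-adjusted mean was at ZT12 for 30 of 40 members, at ZT4 for 9 and at ZT8 for 1, and 34 members were lowest at ZT8, with a median range of 1.41 on the log2 scale. The 40 genes were correlated across mice, so these counts are not 40 separate observations, and 1 high mouse moves them all. Mki67 was 22.8 ± 14 CPM at ZT0 (n = 7), 30.6 ± 5.9 at ZT4 (n = 4), 10.6 ± 4.4 at ZT8 (n = 4), 47.8 ± 28 at ZT12 (n = 6), 33.1 ± 11 at ZT16 (n = 3) and 18.7 ± 4.9 at ZT20 (n = 3). The ZT8 mice, at 6.15 to 14.8 CPM, lay below those of ZT4, ZT12 and ZT16 and overlapped those of ZT0 and ZT20 (adjusted p = 0.031).

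The 5 nephritic genes with the smallest p were Ect2 (adjusted p = 0.0034), Pcna (0.0046), Ccne2 (0.010), Ube2c (0.014) and Kif20a (0.030). Pcna was 73.7 ± 13 CPM at ZT12 and 46.5 ± 1.5 CPM at ZT8, without overlap (61.6 to 90.2 against 44.3 to 47.6 CPM). For Ect2 the same time points had 18 ± 5.1 and 7.40 ± 0.97 CPM, and for Ccne2 1.99 ± 0.48 and 1.14 ± 0.15 CPM. Ube2c followed with 17.3 ± 7.2 and 6.80 ± 1.0 CPM, while Kif20a, another kinesin of cytokinesis, was highest at ZT4, with 7.05 ± 0.80 against 3.91 ± 0.46 CPM at ZT8. Mki67, Rrm1 (0.032), Kif23 (0.033) and Mcm5 (0.046) passed with less margin.

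The nephritic count depended on the model and on single mice. A 24 h cosine passed 0 members, with 2 at an unadjusted p under 0.05, and 362 of 16872 genes tested. DESeq2 passed 24 members and 5646 of 16872 genes tested. Leaving out 1 mouse gave 4 members without RX7LU or RX100, 5 without RX11RU, 14 without RX10LU and 18 without RX12RU. Of the closest pair, leaving out RX12LU gave 8 members, with Mcm5 lost, and leaving out RX11RL gave 6, with Mcm5, Kif20a and Rrm1 lost. Ect2, Pcna, Ccne2 and Ube2c passed in every fit that left out 1 mouse. All T cell (7 of 7) and B cell (6 of 6) markers and 4 of 5 plasma cell markers also passed over time points in nephritic mice, whereas 0 of 7 macrophage, 0 of 6 injured tubule and 0 of 5 proximal tubule markers did. All 5 adrenal cortex markers passed as well, with a summed level of 6.73 CPM in the median and 1160 CPM in the highest nephritic mouse (RX10LU). The part of these cells in the time courses was not tested.

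**Figure D5:**
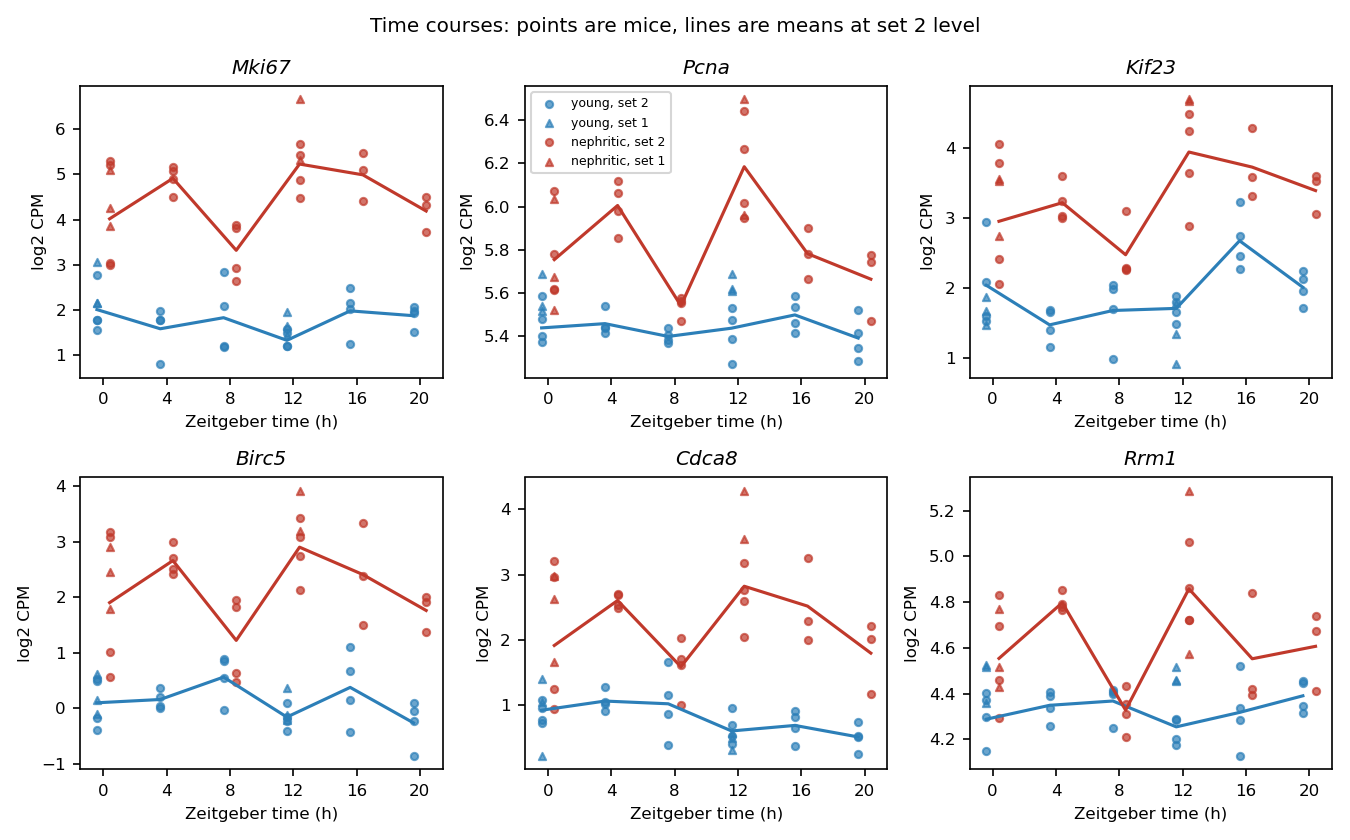
Level in log2 CPM of Mki67, Pcna, Kif23, Birc5, Cdca8 and Rrm1 over the 6 time points (zeitgeber time in hours) in young and nephritic kidney, with mice as points (triangles for set 1) and lines through the means at the level of set 2. In nephritic mice all 6 genes are lowest at ZT8 and highest at ZT12, and in young mice Kif23 is highest at ZT16.

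The test of the difference itself, the group by time terms of a joint fit, passed 6 of 40 members, against 6.27% of 17521 genes: Mki67 (adjusted p = 0.014), Pcna (0.022), Kif23 (0.034), Birc5 (0.035), Cdca8 (0.039) and Rrm1 (0.043). In Pcna the young means ranged from 42.0 ± 3.0 CPM at ZT20 to 45.7 ± 4.5 at ZT12 and the nephritic means from 46.5 to 73.7 CPM, as above. Kif23 was highest at ZT16 in young but at ZT12 in nephritic mice, where it reached 18.8 ± 7.5 CPM against 13.8 ± 5.1 at ZT16. Birc5 was 9.06 ± 3.7 CPM at ZT12 and 2.52 ± 1.3 at ZT8 in nephritic mice and 0.879 ± 0.18 and 1.45 ± 0.40 in young mice, the opposite order. Cdca8 had the same orders at these time points, with 9.47 ± 5.5 and 3.03 ± 0.85 CPM in nephritic and 1.42 ± 0.23 and 2.06 ± 0.79 CPM in young mice. Neither gene passed the test over time points within a group. The adjusted p of Birc5 and Cdca8 was 0.068 and 0.076 in young mice and 0.095 and 0.13 in nephritic mice. Set 1 mice enter these means at ZT12 but not at ZT8, and the set-adjusted means had the same orders. For Rrm1 the nephritic means were 29.6 ± 5.6 CPM at ZT12 and 20 ± 1.3 at ZT8, while all young means lay between 20 and 20.9 CPM. Markers of leukocytes passed in the same test: 6 of 6 B cell, 4 of 5 plasma cell and 4 of 7 T cell markers, such as Tnfrsf17 (adjusted p = 0.0011), Derl3 (0.0043) and Pax5 (0.0047), as did 3 of 5 adrenal cortex markers, and 0 of 7 macrophage and 0 of 6 injured tubule markers. Their part in the difference was not tested.

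This count was also unstable, from 2 to 21 when 1 mouse was left out. It was 2 without CR3LL, HIL5RU, RX7LU, RX100, RX8RU or RX9RU, 3 without ZT16RU, CR3RL, RX12LU, RX1OLL or RX12RL, 13 without RX10LU or RX10RL, 14 without RX11LL or RX12LL, 15 without RX7LL, 19 without RX9RL and 21 without RX12RU. It was 4 without RX11RL, the library closest to RX12LU. Mki67 and Pcna passed in each of the fits that left out 1 mouse. In set 2 alone 3 members passed, Pcna, Rrm1 and Ect2, and Mki67 had an adjusted p of 0.058. There 1715 of 17339 genes tested passed. DESeq2 passed 20 members and 2186 of 17521 genes tested.

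Of the 8 cell cycle genes with a known tie to the clock 4 passed over time points in young mice, beside 39.8% of all genes tested. Wee1 (adjusted p = 3.4e-12) and Cdkn1a (2.1e-08) had smaller p than any member, followed by Myc (0.027) and Chek2 (0.032). Some replication and mitosis genes outside the members also had smaller p than any member, such as Tk1 (7.2e-08) and Cdc25b (8.7e-07). Of 13 brakes tested 4 passed, Cdkn1a among them, and of the other lists 5 of 18 replication genes, 7 of 27 mitosis genes and 5 of 14 genes of G1 entry passed, all shares below that of all genes tested. In nephritic mice, where 21.6% of all genes tested passed, 3 of 8 clock-tied genes did so, Tipin (0.011), Cdkn1a (0.019) and Chek1 (0.035), and Wee1 did not (0.077). The time course of Wee1 differed between the groups (adjusted p = 0.038), whereas that of Cdkn1a was not shown to differ (0.17).

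In remission 23 of 40 members were lower than in nephritic mice of ZT0 and ZT12, against 16.5% of 16344 genes tested, and 0 were higher. The median log2 change was -0.97 for members and 0.00 for all genes. Against young mice of ZT0 and ZT12, 33 of 40 members were higher in remission, where 26% of 15982 genes tested were, and 0 were lower (0 also at an unadjusted p under 0.05 and with DESeq2), with a median log2 change of 1.06. Both comparisons use the same remission mice. Without s9, 14 members were lower than in nephritic mice (14.9% of genes tested) and 32 were higher than in young mice (25.2%). The members no longer lower than in nephritic mice were Pcna, Rrm2, E2f1, Ccnb1, Aurkb, Birc5, Kif11, Tpx2 and Top2a, with an adjusted p between 0.054 (Ccnb1) and 0.082 (E2f1), and the member no longer higher than in young mice was Aurka (adjusted p = 0.066).

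The 8 remission mice differed widely among themselves. Mki67 was 4.87 CPM in s1, 8.95 in s3, 18.1 in s4 and 13.7 in s8 at ZT0, and 14.6 in s9, 2.32 in s10, 25.2 in s12 and 40.7 in s14 at ZT12. The values in s10 and s1 lay within the young range and that in s14 above the nephritic median of 34.0 CPM at these time points. The log2 change of Mki67 was 2.32 against young mice (SE 0.43, adjusted p = 0.00012) and -0.90 against nephritic mice (SE 0.46, adjusted p = 0.14), so that it did not pass in the latter. Leukocyte transcripts varied along with it: Ptprc was 9.02 CPM in s10, 15 in s1, 60.6 in s12 and 88.9 in s14. The summed markers were 11.9 to 97.3 CPM for T cells, 8.32 to 171 CPM for B cells, 99.8 to 868 CPM for plasma cells and 220 to 785 CPM for macrophages in remission mice. Against young mice 6 of 7 T cell, 6 of 6 B cell, 5 of 5 plasma cell, 7 of 7 macrophage and 6 of 6 injured tubule markers were higher, and 4 of 5 proximal tubule markers were lower. Against nephritic mice the injured tubule markers Vcam1 and Krt20 and the macrophage marker Mrc1 were lower and the B cell marker Pax5 and the plasma cell marker Tnfrsf17 higher, of which Vcam1 (adjusted p = 0.059), Krt20 (0.082) and Tnfrsf17 (0.056) did not pass without s9. Of 5 endothelial markers 4 were higher than in nephritic mice with and without s9 (Pecam1, Cdh5, Kdr and Tek), and 5 were higher than in young mice. Their summed level was 328 to 426 CPM in remission, above all nephritic mice (111 to 326 CPM), and 192 to 370 CPM in young mice. The part of these cells in the level of the members was not tested.

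The genes that were lower in remission than in nephritis made up 7 of 8 G2 to M genes, 7 of 9 kinetochore, spindle and cytokinesis genes, 2 of 5 checkpoint genes and 2 of 3 passenger genes. Without s9 these counts were 6, 5, 2 and 0. Kif23, with 1.31 to 7.26 CPM (median 2.73) in remission and 4.11 to 26.0 CPM (median 12.5) in nephritic mice of the same time points, changed most. In 6 of 8 remission mice it was below the lowest nephritic mouse, and the log2 change was -1.82 (SE 0.35, adjusted p = 0.00063). Against young mice, whose median was 3.12 CPM, its log2 change was -0.11 (SE 0.28, adjusted p = 0.77). Kif20a behaved alike, with 1.70 to 4.85 CPM (median 2.94) in remission and 3.63 to 8.33 CPM (median 5.99) in nephritic mice, 7 of 8 remission mice below the lowest nephritic mouse, and log2 changes of -1.01 against nephritic (SE 0.20, adjusted p = 0.00085) and -0.05 against young mice (SE 0.16, adjusted p = 0.81).

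Cdk1 had 0.706 to 5.90 CPM (median 1.82) in remission, with 5 of 8 mice below the lowest nephritic mouse of these time points (1.97 CPM). It fell by 1.78 on the log2 scale against nephritic mice (SE 0.47, adjusted p = 0.0074) but was still higher than in young mice (1.26, SE 0.38, adjusted p = 0.0078). Bub1 was next in size (-1.72, SE 0.50, adjusted p = 0.013), with Prc1 (-1.70, SE 0.49), Ccnb1 (-1.58, SE 0.53), Ccna2 (-1.50, SE 0.42), Foxm1 (-1.32, SE 0.40), Kif11 (-1.26, SE 0.44) and Top2a (-1.24, SE 0.44, adjusted p = 0.039) in the same direction. Without s9, Ccnb1 (adjusted p = 0.054), Kif11 (0.066) and Top2a (0.069) did not pass against nephritic mice. Each of these was higher than in young mice. Top2a, for example, was 1.86 to 21.8 CPM (median 7.54) in remission, with 5 of 8 mice above all young mice and a log2 change of 2.11 (SE 0.38, adjusted p = 9.4e-05). Ccne2 was lower than in nephritic mice and was not shown to differ from young mice: its median was 0.984 CPM in remission, 1.40 in nephritic and 1.09 in young mice of these time points, with log2 changes of -0.78 (SE 0.20, adjusted p = 0.0062) and -0.03 (SE 0.17, adjusted p = 0.90).

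Of the 7 replication genes only Pcna passed between nephritis and remission, with 36.8 to 62.5 CPM (median 49.0) in remission against a median of 62.2 CPM in nephritic mice and a log2 change of -0.33 (SE 0.12, adjusted p = 0.041). Without s9 it did not pass (-0.26, SE 0.11, adjusted p = 0.080), which left 0 of 7. Mcm6 had 23.3 to 40.7 CPM (median 35.1) in remission and a median of 39.2 CPM in nephritic mice, a log2 change of -0.05 (SE 0.16, adjusted p = 0.85). Of 8 remission mice 7 were above all young mice (0.52, SE 0.08, adjusted p = 2.6e-05). Mcm5 (-0.51, SE 0.31, adjusted p = 0.22) and Mcm2 (-0.37, SE 0.20, adjusted p = 0.18) did not pass against nephritic mice and were higher than in young mice (1.15, SE 0.20, and 0.33, SE 0.10). The same held for Rrm1 (-0.10, SE 0.10, and 0.33, SE 0.06), whereas Rrm2 passed both ways (-0.98, SE 0.33, adjusted p = 0.029, and 0.73, SE 0.19, adjusted p = 0.0032), the former not without s9 (adjusted p = 0.055). Tyms, at 14.4 to 18 CPM (median 15.5), passed against neither group (0.01, SE 0.08, and -0.07, SE 0.07). Whether the change of replication genes was smaller than that of mitosis genes was not tested.

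The largest changes against young mice after Mki67 and Top2a were those of Bub1b, a checkpoint kinase (2.09, SE 0.40, adjusted p = 0.00017), and Melk (2.09, SE 0.39). Aurkb (1.77, SE 0.43) and Birc5 (1.55, SE 0.38) were also higher, as were Cdc20 (1.63, SE 0.29), Ube2c (0.96, SE 0.20), Ccne1 (1.29, SE 0.32), E2f1 (0.50, SE 0.16) and Cenpf (1.18, SE 0.40). Plk1 (0.76, SE 0.36, adjusted p = 0.079), Ttk (1.14, SE 0.51, adjusted p = 0.065) and Mcm7 (0.17, SE 0.08, adjusted p = 0.086) did not pass, in addition to Tyms, Ccne2, Kif20a and Kif23. For Ect2 the log2 change of 0.49 (SE 0.15, adjusted p = 0.0073) depends on how the sets are handled, since set 1 mice enter with a term of their own: remission mice had 12.5 to 18.5 CPM, all young mice of ZT0 and ZT12 had 6.52 to 27.8 CPM (median 16.2), and in set 2 alone the change was 0.50 (adjusted p = 0.016). No member separated remission from young mice completely (0 of 40, against 3.45% of genes tested), and 0 to 7 of 8 remission mice were above the highest young mouse, with a median over members of 4.

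The libraries of remission mice were run apart from the first libraries of all other mice, and in the comparisons above the run and remission cannot be told apart. Within the remission run, 8 remission libraries against the 2 nephritic second libraries, 1 of which is the library of RX11RU that resembles RX11LU, left 13 members lower, 11 of them among the 23. In this fit 1896 of 14828 genes tested were lower. Cdk1 had a log2 change of -2.13 (adjusted p = 0.031), Mki67 of -1.32 (adjusted p = 0.20) and Pcna of 0.00. Against the 2 young second libraries of the run 0 members passed, where only 182 of 14934 genes tested were higher. At an unadjusted p under 0.05, 12 members were higher and 0 lower. The median log2 change was 1.01 over 39 members tested, and Mki67 had 2.20 (SE 0.90, adjusted p = 0.17). Leaving out single mice gave 11 to 26 members lower than in nephritic mice, with 11 without RX12RU, 13 without RX10LU, s1 or s10, and 14 without RX11RU or s9, and 28 to 36 higher than in young mice. The 11 members lower in every such fit were Bub1, Ccna2, Ccnb2, Ccne2, Cdk1, Cenpf, Foxm1, Kif20a, Kif23, Prc1 and Ttk.

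The further lists were counted in remission as well, beside the 16.5% of all genes tested (14.9% without s9) that were lower than in nephritic mice. In remission against nephritic mice 13 of 28 mitosis genes outside the members fell, led by Anln (-1.96, SE 0.52), Hmmr (-1.83, SE 0.47) and Nuf2 (-1.63, SE 0.42), and 3 of 18 replication genes, Uhrf1 (-1.19, SE 0.43), Tk1 (-0.97, SE 0.18) and Cdc45 (-0.66, SE 0.23). Without s9 these counts were 10 and 1, with Uhrf1 (adjusted p = 0.051) and Cdc45 (0.061) lost. Of the genes of G1 entry 5 fell and 2 rose, Myc most (-1.45, SE 0.43, adjusted p = 0.015), then E2f7 (-1.07, SE 0.38) and E2f3 (-0.62, SE 0.18), while cyclin D1 rose (0.49, SE 0.16, adjusted p = 0.022). Without s9, 3 fell and 2 rose, with E2f7 (adjusted p = 0.068) and Cdk6 (0.0501) lost. Of the brakes Btg2 (-0.69, SE 0.21) and Gadd45a (-0.53, SE 0.16) fell and Cdkn2b rose (0.86, SE 0.31), which did not pass without s9 (adjusted p = 0.099). Cdkn1a, at 23.6 to 58.9 CPM (median 27.6) in remission, did not pass against nephritic mice (-0.55, SE 0.27, adjusted p = 0.12). Of the clock-tied genes Chek1 (-1.74, SE 0.35, adjusted p = 0.0011), Chek2 (-0.69, SE 0.20) and Myc fell, and Wee1 did not pass (-0.14, SE 0.23).

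Of all 15982 genes tested 26% were higher in remission than in young mice. Without s9 the share was 25.2%, and 3932 of 15947 genes were lower. Against young mice 21 of 27 further mitosis genes (20 without s9) were higher in remission and 1 was lower, with Ndc80 (1.93, SE 0.37), Kif18b (1.88, SE 0.45) and Ccnf (1.76, SE 0.38) changed most. Of 18 replication genes 9 were higher, with Uhrf1 (1.24, SE 0.24), Cdc6 (1.15, SE 0.36) and Gins2 (1.10, SE 0.15) leading. The brakes had 5 higher and 1 lower, with Cdkn2a (3.18, SE 0.61), Cdkn1a (1.27, SE 0.23, adjusted p = 9.8e-05) and Cdkn2b (1.04, SE 0.29) first. Genes of G1 entry had 6 higher and 2 lower (1 without s9), with E2f8 (2.06, SE 0.53), E2f7 (1.69, SE 0.31) and E2f2 (1.38, SE 0.26) first, and of the clock-tied genes Timeless (0.73, SE 0.14), Cdkn1a and Myc were higher and Tipin was lower (-0.27, SE 0.10, but adjusted p = 0.051 without s9), while Wee1 did not pass (-0.22, SE 0.15).

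Several members share exonic bases with a gene on the opposite strand in the GENCODE vM21 annotation, and the strand setting of the counting is not given in the sources used here. The longest such overlaps are Kif20a with Cdc23 (1271 bases), Prc1 with Rccd1 (911), Ccne2 with Ints8 (609), Ube2c with Tnnc2 (592) and Ccna2 with Exosc9 (510). Unless the counting used the strand, reads there cannot be assigned to 1 of the 2 genes. Mcm7, which also overlaps Ap4m1 and Cops6, carries the Mir25 and Mir93 genes within its sequence.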

How the data were processed

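The authors aligned RNASeq reads of kidney RNA to the mouse genome (mm10; HISAT in the submitters' processing notes, a Burrows-Wheeler aligner in the methods) and deposited whole-number counts per gene symbol without normalization, in 69 libraries of 24538 symbols, of which 15 were empty. Groups and time points came from the labels, and sets from the study's sample table. Genes reaching 100 counts in total among the mice compared were tested with edgeR 4.0.16 (R 4.3.3; TMM, quasi-likelihood F test, Benjamini-Hochberg adjustment), with set and, where it applied, time point as terms. Second libraries entered only the fits within the remission run. DESeq2 1.42.0, limma 3.58.1, RLE factors, no filter, single sets, no set or time term, a 24 h cosine, a stricter threshold and leaving out each mouse were alternatives. Set 1 alone was chosen after seeing the data. The main fits, except that over time points in nephritic mice, were tested on simulated data. The members, lists and the rule for genes given with values (the lead members of each role, the 3 largest and 3 smallest changes per comparison, members past a time test, and the 3 largest changes of each further list with Cdkn1a and Wee1) were chosen with earlier results of these data known. Microarrays and C57BL/6 libraries were not analysed here. The result of 1 gene of the further lists is not reported here.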

Additional observations from a re-analysis of the deposited data

Results flagged for a closer look

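The summed level, Mki67, Top2a, Cdk1, Mcm5, Pcna and Tyms were each looked at in the groups of 4 to 10 mice, 84 checks in all. In 7 of them a mouse lay far from the others. Chance gives about 1 in 20 for independent, normally distributed values, but these checks used CPM and share mice and genes. In young kidney at ZT0 the mouse CR6LL had the highest summed level of the 40 genes (297 CPM), of Top2a (6.68 CPM) and of Cdk1 (2.62 CPM), and at ZT8 the mouse ZT8LU had 2.44 CPM of Cdk1. In nephritic kidney the mouse HIL5RU had 101 CPM of Mki67 at ZT12, and RX11LU had the lowest Mcm5 at ZT4 (16.2 CPM). Tyms was lowest at ZT12 in the young mouse ZT12RU (13.4 CPM).

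The time course differed between young and nephritic kidney, by the group by time terms of edgeR's quasi-likelihood test, for Mki67 (adjusted p = 0.01415), Pcna (0.02186), Kif23 (0.03381), Birc5 (0.0349), Cdca8 (0.03927) and Rrm1 (0.04332).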

How the results depend on the processing

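The 38 members higher in nephritic kidney numbered 36 to 39 under every alternative run and 38 whenever 1 mouse was left out. The members lower there numbered 0, except 1 (Ect2) in set 1 alone. Members varying in young kidney numbered 3 at an adjusted p of 0.01 and 5 to 7 without 1 mouse. In nephritic kidney they numbered 24 with DESeq2, 0 with the cosine, 2 at 0.01 and 4 to 18 without 1 mouse. Over all genes DESeq2 passed 5646 of 16872 tested there and the cosine 362. Differing time courses numbered 20 with DESeq2, 3 in set 2 alone, 0 at 0.01 and 2 to 21 without 1 mouse. Over all genes they numbered 2186 of 17521 with DESeq2 and 1715 of 17339 in set 2 alone. Members lower in remission than nephritic kidney numbered 14 without s9, 13 within the remission run, 5 at 0.01 and 11 to 26 without 1 mouse. Members higher in remission than young kidney numbered 0 within the remission run and 28 to 36 without 1 mouse, and those lower numbered 0 throughout. Within the remission run the groups hold 8 and 2 libraries. There 1896 of 14828 genes tested were lower than in nephritic kidney and 182 of 14934 were higher than in young kidney. For the other changes the cause was not tested.

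Log2 changes that turned sign belonged to comparisons in which the member did not pass, except that of Pcna in remission against nephritic kidney. Against young kidney, Ect2 in nephritic kidney had -0.004455 with limma, -0.04958 with no set term and -1.046 in set 1 alone, and Tyms had 0.09262 in set 1 alone. For remission against nephritic kidney within the remission run, Pcna had 0.0003976, Tyms -0.0403 and Ect2 0.01123, and Tyms had -0.002129 with RLE factors and -0.01034 with comparison mice of set 2 alone. For remission against young kidney within that run, Ccne2 had 0.01909 and Kif20a 0.02673. Leaving out 1 mouse turned the sign of 7 changes that did not pass: Tyms (-0.02981 to 0.009767) and Ect2 (-0.01293 to 0.08889) in nephritic against young, Mcm6 (-0.1101 to 0.0349) and Tyms (-0.04442 to 0.04613) in remission against nephritic, and Ccne2 (-0.08167 to 0.09267), Kif20a (-0.1756 to 0.03379) and Kif23 (-0.364 to 0.1033) in remission against young kidney.

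No paired analysis was possible because the labels give no replicate numbers that groups share. Depth, at least 13311278 counts a library, limits the members under 1 CPM most, and the remission libraries are the shallowest.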
